A study of Mus musculus with 9 samples.

Results

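The nuclear-encoded subunits of the respiratory chain were followed as transcripts in mouse embryoid bodies (EBs), clusters of differentiating embryonic stem cells. Members were the protein-coding genes whose symbols start with Ndufa, Ndufb, Ndufc, Ndufs or Ndufv (assembly factors named Ndufaf and Ndufa4l2 left out), Sdha to Sdhd, Uqcr, Cyc1, Cox4i, Cox5, Cox6, Cox7, Cox8 or Atp5, with a mean of 10 or more counts over the 9 libraries. The rule used names and mean counts and no difference between groups. Of 55471 gene IDs in the count table, 86 met the name rule and 84 also reached the mean. Just outside were Cox8b, a heart and muscle isoform, at a mean of 0.222 counts and a second Atp5o ID with 0 counts. Just inside were Ndufs5 at 11.7, Cox8c at 15.4 and Cox6a2 at 17.4 mean counts. By role the members fell into 36 of complex I, 4 of complex II, 9 of complex III, 18 of complex IV and 17 of complex V. Ndufa4 was counted with complex IV, where its protein is found. Atp5s carries the family symbol but is not a subunit of the enzyme.

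Complexes I and II feed electrons from NADH and succinate to ubiquinone, complex III passes them to cytochrome c and complex IV to oxygen, while complexes I, III and IV pump the protons that drive ATP synthesis by complex V. Complex II is built from nuclear genes alone and is also an enzyme of the citric acid cycle, whereas the other complexes combine nuclear subunits with subunits encoded in mitochondrial DNA. Pluripotent stem cells use glycolysis as well, and mitochondria mature as cells differentiate.

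The study asked how loss of Tnfaip2 affects differentiation and whether lipid supply restores it. There were 3 libraries of wild-type EBs (WT), 3 of Tnfaip2-/- EBs (KO), and 3 of Tnfaip2-/- EBs given 2 lipids, 8 μM palmitic acid with 8 μM palmitoyl-L-carnitine (together PA/PC, group KO_PAPC). All EBs came from E14 embryonic stem cells and were harvested after 3 days of in vitro differentiation, and WT and KO received neither lipid. By the study's methods the lipids were already present during the 3 days in which EBs formed before differentiation. For this step the methods name fibroblast (MEF) medium with the lipids, and stem cell (ES) medium for EBs in general. As described, the lipids and the medium of EB formation cannot be told apart. The knockout was 1 selected clone with an early stop codon made by CRISPR, so the genotype and the history of this clone cannot be told apart, and no WT EBs with PA/PC were analysed here. Because EBs hold mixtures of cells, fewer cells of a type and less RNA per cell cannot be told apart either.

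Libraries held 27362913 to 28914312 counts, of which members took 1.38% to 1.49%. Tnfaip2 was near the detection floor, with 16, 6 and 10 counts in WT, 5, 6 and 8 in KO and 25, 14 and 16 with PA/PC, so its level gave no check of the labels. Levels are CPM, counts scaled to a common library size with TMM factors over the 9 libraries. Differences were tested with edgeR's quasi-likelihood test, adjusted by Benjamini-Hochberg over all genes tested and called at an adjusted p under 0.05, and log2 fold changes carry their standard error (SE). Because replicates lay close together most genes passed, and a second call required a fold change tested to exceed 1.5. Summed over 6 markers each, pluripotency genes ranged over 2094 to 2120.2 CPM in WT, 3154 to 3179 in KO and 2120.2 to 2156 with PA/PC, and endoderm genes over 538 to 582, 260.2 to 269.8 and 54.1 to 56.2 CPM. The 4 blood markers stayed at or under 0.135 CPM in sum. Within these sums Pou5f1 rose with PA/PC, from a mean of 669.8 CPM in KO to 913. Col4a1 made up most of the endoderm sum in WT (481 CPM), and Afp was higher in KO (10.6 CPM) than in WT (4.57). The 5 neuroectoderm markers summed to 126 to 130.1 CPM in WT, 36.3 to 39.8 in KO and 228 to 233 with PA/PC. On the TMM scale the mean sums of complexes I, II and IV had the same order of groups. So did those of 10 hypoxia-responsive genes and 89 cytosolic ribosomal protein genes. With library totals complexes I and IV lost this order. Of the neuroectoderm markers tested, 4 of 4 were lower in KO and 5 of 5 higher with PA/PC, where 37.1% and 39.6% of all genes were. The 6 mesoderm markers summed to 7.41 to 8.62 CPM in WT, 12.5 to 14.3 in KO and 23.4 to 25.4 with PA/PC. They were split, with T at means of 1.83, 0.281 and 16.7 CPM and Kdr at 1.86, 6.18 and 0.563. The 7 fibroblast markers summed to 15.1 to 15.5, 20.9 to 23.2 and 17.8 to 20.9 CPM. These marker levels differed between the groups alongside the results given here, and their part in them was not tested.

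Over the whole set, differences of respiratory chain transcripts were small. In KO against WT, 26 members were called higher and 35 lower of 84, where 73.8% of all genes tested were called. In KO_PAPC against KO, 40 of 83 tested members were called higher and 28 lower (81.8% of all genes called), and in KO_PAPC against WT 37 of 84 were higher and 18 lower (70.6% of all genes called). By direction, 36.8% of all genes were higher and 37.1% lower in the first contrast, 39.6% and 42.2% in the second and 34.2% and 36.4% in the third. These shares are the background for every count of calls given below. Groups did not overlap for 62, 68 and 56 members, where 75.3%, 82.2% and 72.6% of all genes tested did not. Of the members tested, 30.95% were higher and 41.7% lower in the first contrast, 48.2% and 33.7% in the second and 44.05% and 21.4% in the third. The median absolute log2 fold change of members was 0.18, 0.26 and 0.15 in the 3 contrasts, beside 0.36, 0.54 and 0.33 over all genes tested. The contrasts share libraries, so their counts are not independent.

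Past the minimum fold change of 1.5, 6 members were called lower in KO than in WT, where 21.0% of all genes passed, 10.8% higher and 10.1% lower. These were Ndufs6, Ndufa13, Cox4i2, Cox6a2, Cox6b2 and Atp5s, of which Ndufs6 and Atp5s were not called past this fold by DESeq2 (adjusted p = 0.127 and 0.138). The number called higher was 0 by edgeR and by DESeq2, and 0 at an unadjusted p under 0.05. With PA/PC, 6 members (Ndufs6, Sdhc, Uqcrb, Uqcrh, Cox4i2 and Cox7c) lay above KO and 3 (Ndufa1, Cox7b2 and Atp5g1) below it, where 37.8% of all genes passed, 15.5% higher and 22.3% lower. Of these, Atp5g1 was lost in DESeq2 (adjusted p = 0.181). Between KO_PAPC and WT 3 members were lower, Cox6a2, Cox6b2 and Cox7b2, which are isoforms of complex IV, where 17.7% of all genes passed, 4.31% higher and 13.4% lower. Cox6a2 reached the mean of 10 counts through WT alone, since it averaged 5.83 counts over the other 6 libraries, so a low level elsewhere came with its membership and its place in these counts supports nothing. Here too the number called higher was 0 by edgeR and DESeq2, and 0 at an unadjusted p under 0.05.

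By complex, the median log2 fold changes in KO against WT were -0.06 for complex I, -0.18 for complex II, 0.12 for complex III, -0.10 for complex IV and 0.06 for complex V, beside -0.01 for all genes tested. In KO_PAPC against KO they were 0.08, 0.38, -0.16, 0.11 and 0.06, beside -0.02. With TMM complex II had the largest median in either contrast, in opposite directions. With library totals that of complex III was larger against KO (-0.32, and 0.21 for complex II), and relative to the chromosome medians it was slightly larger in KO against WT (0.086, and -0.083 for complex II). In KO_PAPC against WT the medians were 0.01, 0.14, -0.03, 0.09 and 0.12, beside -0.02. Scaling by library totals in place of TMM moved the median of all genes to -0.18 in both KO_PAPC contrasts, and the members then split into 30 higher and 39 lower against KO and 13 higher and 44 lower against WT. Under that scaling the medians of complexes I, IV and V turned lower against KO, and those of complexes I, II, IV and V lower against WT, so small differences to KO_PAPC hold only relative to the TMM scale. The complex IV median against KO depended on single libraries, being -0.00529 without KO_PAPC replicate 2, 0.0143 without KO_PAPC replicate 1, 0.0221 without KO_PAPC replicate 3, 0.0195 without KO replicate 1 and 0.00351 in a fit of all 9 libraries. The complex I median against WT turned to -0.02 without WT replicate 2 and -0.01 without KO_PAPC replicate 2.

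**Figure D1:**
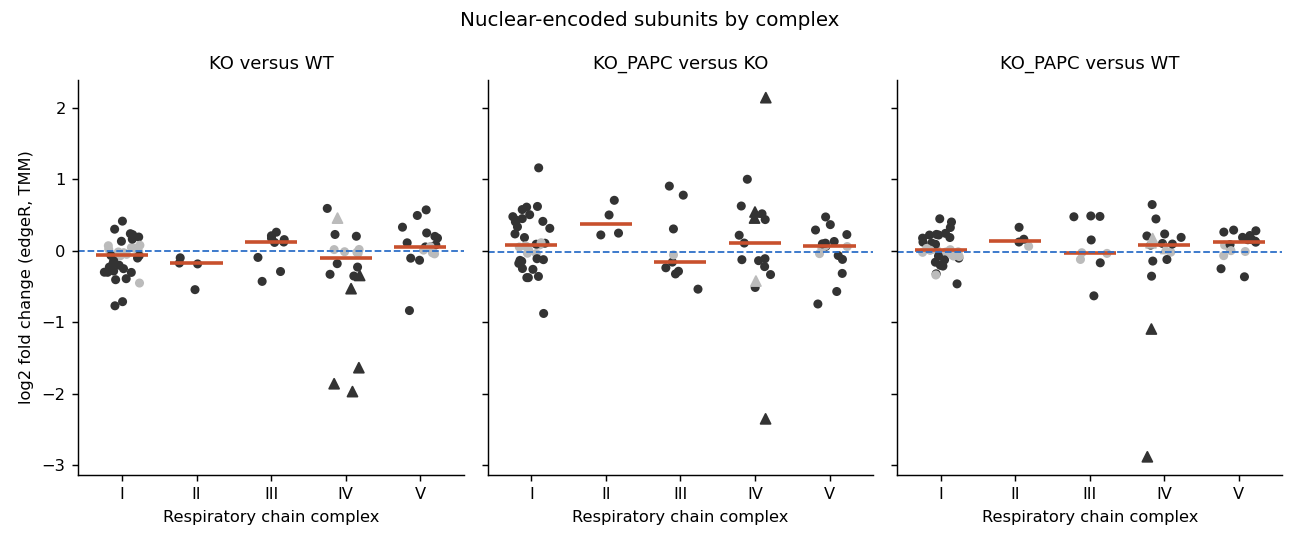
Log2 fold change (vertical axis, edgeR with TMM) of each member, grouped by complex, in the 3 contrasts. Dark symbols were called at an adjusted p under 0.05 and grey ones were not, triangles are tissue-restricted isoforms, red bars are complex medians and the dashed line is the median of all genes tested. Cox6a2 is not drawn in KO_PAPC versus WT, where it rests on 1 count. Complex II sits below the line in KO and above it with PA/PC, and the points farthest from the line are isoforms of complex IV.

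All 4 subunits of complex II fell in KO against WT and rose in KO_PAPC against KO. Sdhc, a membrane anchor (chromosome 1, 171127165 to 171150603, minus strand, GRCm38), was measured at 145, 144 and 145 CPM (WT), 101, 97.8 and 99.4 (KO) and 164, 163 and 162 (KO_PAPC). On the TMM scale the groups did not overlap, KO being lowest and KO_PAPC highest. The log2 fold change was -0.54 ± 0.0278 (SE) in KO against WT (edgeR adjusted p = 2.16e-18) and 0.71 ± 0.0297 in KO_PAPC against KO (edgeR adjusted p = 2.91e-22).

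Sdha, the flavoprotein that oxidises succinate (chromosome 13, 74322254 to 74350280, minus strand), stood at 314, 316 and 314 CPM (WT), 279, 285 and 276 (KO) and 395, 396 and 403 (KO_PAPC), again without overlap. The first step was -0.17 ± 0.0229 (edgeR adjusted p = 4.57e-08), the second 0.50 ± 0.0252 (edgeR adjusted p = 6.91e-20), and KO_PAPC also lay above WT by 0.33 ± 0.0262 (edgeR adjusted p = 3.6e-11). Sdhb, the iron-sulphur subunit that carries the electrons onward, was at 135, 136 and 137 CPM (WT), 122, 123 and 115 (KO) and 141, 141 and 147 (KO_PAPC). It lay lowest in KO, with changes of -0.18 ± 0.0290 and 0.25 ± 0.0312 (edgeR adjusted p = 1.05e-06 and 4.99e-09), and its difference between KO_PAPC and WT was not called (0.06 ± 0.0308, edgeR adjusted p = 0.0676).

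Sdhd, the other membrane anchor, moved least, with 190.3, 179.7 and 183 CPM (WT), 169.7, 173 and 175 (KO) and 207, 197 and 201 (KO_PAPC). The changes were -0.10 ± 0.0267 and 0.22 ± 0.0282 (edgeR adjusted p = 0.00157 and 5.44e-09), the second of which was lost with library-total scaling (adjusted p = 0.0643). Summed, the complex stood at 779.7 ± 3.70 CPM in WT (SD, n = 3), 672 ± 7.01 in KO and 905 ± 7.90 with PA/PC. Scaled by library totals the sums were 812 ± 5.62, 699 ± 6.9 and 836 ± 6.16 CPM, so that KO_PAPC lay closer to WT. Under that scaling Sdhb, Sdhc and Sdhd were no longer above WT with PA/PC (-0.10, -0.0020 and -0.041). With PA/PC the median of the 4 genes was 0.21 under library-total scaling and 0.43 after a correction for GC content and gene length. At most 0.0641% of the 51-base words of a main transcript occur in another gene.

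Promoters of respiratory chain genes are known for sites of NRF1, an activator of mitochondrial genes. The RefSeq promoter table (GRCm38.p6, 250 bases before to 50 after each start) matched 66 of the 84 members, and the NRF1 consensus motif was found on either strand in 24.2% of these, against 4.6% of all 32851 promoters. It occurred in 7 of 32 matched promoters of complex I, 2 of 3 of complex II, 1 of 5 of complex III, 1 of 13 of complex IV and 5 of 13 of complex V. Members that ran lower with PA/PC held it too, such as Uqcrc1 (-0.16) and Cox6a1 (-0.33) with 2 matches each. Windows are shown for Sdha (2 of its 3 matches), Sdhd and Ndufs6, the member of complex I with the largest rise under PA/PC. They were picked by complex and by this rise, so they do not tie the motif to a direction. Each is written 5′ to 3′ on the strand of the gene with the match in capitals.
Sdha, chr13:74350276-74350305, minus strand: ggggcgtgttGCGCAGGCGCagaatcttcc
Sdha, chr13:74350319-74350348, minus strand: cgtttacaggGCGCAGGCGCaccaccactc
Sdhd, chr9:50603909-50603938, minus strand: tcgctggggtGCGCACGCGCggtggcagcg
Ndufs6, chr13:73328483-73328512, minus strand: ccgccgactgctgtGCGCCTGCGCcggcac
The letters CCGGAAG, read by ETS factors such as GABP, were found in 22.7% of matched members and 8.86% of all promoters, and AAGATGGCG, read by YY1, in 9.09% and 1.4%. The hypoxia core letters ACGTG were found in 22.7% and 19.6%. A match in these letters describes the sequence and is not a bound site. Of 16 tested regulators of mitochondrial genes, 7 were higher and 7 lower in KO, 9 higher and 2 lower in KO_PAPC against KO, and 12 higher and 2 lower in KO_PAPC against WT. Over all genes tested the shares higher and lower were 36.8% and 37.1%, 39.6% and 42.2%, and 34.2% and 36.4%. Ppargc1b, a coactivator of mitochondrial genes, stood at 3.86, 4.88 and 4.49 CPM (WT), 2.77, 2.27 and 3.10 (KO) and 6.65, 6.76 and 7.68 (KO_PAPC), with changes of -0.70 ± 0.127 and 1.37 ± 0.117 (edgeR adjusted p = 9.34e-06 and 3.51e-13). Esrra, a nuclear receptor it works with, ran the other way, at 0.39 ± 0.0422 and -0.71 ± 0.0490 (edgeR adjusted p = 3.95e-10 and 8.39e-16).

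Complex I did not move as a unit. In its matrix arm, where NADH is oxidised (N module) and ubiquinone reduced (Q module), the N module had 3 subunits called higher and 6 lower of 10 in KO, and 6 higher and 3 lower with PA/PC. The Q module had 3 of 6 lower in KO and 3 higher with PA/PC, and none the other way. Over all genes tested, 36.8% were higher and 37.1% lower in KO, and 39.6% and 42.2% with PA/PC. The medians of the N and Q modules were -0.15 and -0.15 in KO, then 0.32 and 0.20 with PA/PC. Of the N module, Ndufs4 and Ndufs6 lie on chromosome 13 and Ndufa7, Ndufv2 and Ndufv3 on chromosome 17. Other genes there had medians of -0.19 and -0.25 in KO and 0.45 and 0.39 with PA/PC. Relative to these, the members stood at -0.04, -0.52, -0.04, -0.13 and 0.15 in KO, and 0.004, 0.71, 0.09, 0.23 and 0.12 with PA/PC. The part of chromosome position in the module medians was not tested. In the membrane arm, whose proton pumps are encoded in mitochondrial DNA, the proximal subunits had medians of 0.02 and -0.12 and the distal ones of -0.04 and 0.03.

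Ndufs6, a zinc-binding subunit of the N module, was measured at 54.5, 55.8 and 55.5 CPM (WT), 35.5, 32.6 and 33.2 (KO) and 72.9, 77.7 and 77.1 (KO_PAPC). Every KO library lay below every WT library and every KO_PAPC library above both. The log2 fold change was -0.71 ± 0.0403 in KO (edgeR adjusted p = 3.51e-17), 1.16 ± 0.0414 with PA/PC (edgeR adjusted p = 1.78e-24) and 0.45 ± 0.0377 in KO_PAPC against WT (edgeR adjusted p = 1.06e-10).

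Ndufv2, an iron-sulphur subunit beside the NADH site, had the same order of groups, at 146, 142 and 145 CPM (WT), 108, 113 and 111 (KO) and 174, 167 and 169.7 (KO_PAPC). Its changes were -0.39 ± 0.0281 and 0.62 ± 0.0301 (edgeR adjusted p = 2.4e-14 and 2.27e-20). Ndufv3, an accessory subunit of the same module, held 95.1, 96.9 and 96.1 CPM (WT), 93.4, 90.3 and 85.4 (KO) and 119, 136 and 128 (KO_PAPC), with a step of 0.51 ± 0.0379 under PA/PC (edgeR adjusted p = 9.4e-15). Ndufv1, which holds the NADH site itself, ran the other way at 164, 169.95 and 165 CPM (WT), 193, 187 and 179 (KO) and 141, 144 and 148 (KO_PAPC). It rose by 0.16 ± 0.0279 and then changed by -0.37 ± 0.0305 (edgeR adjusted p = 3.15e-06 and 9.34e-14), so that neighbours in the NADH-oxidising tip changed in opposite directions. In the Q module Ndufa9, Ndufa5 and Ndufs8 were not called in any of the 3 contrasts.

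In the membrane arm, Ndufa1, an X-linked subunit needed for assembly, was highest in KO and lowest in KO_PAPC, at 68.3, 64.6 and 64.96 CPM (WT), 91.9, 87.1 and 85.4 (KO) and 46.7, 49.4 and 48.4 (KO_PAPC). The log2 fold changes were 0.42 ± 0.0345, -0.88 ± 0.0381 and, for KO_PAPC against WT, -0.46 ± 0.0404 (edgeR adjusted p = 7.82e-13, 8.4e-22 and 2.29e-10). Ndufb11, also X-linked, stood at 117, 119 and 115 CPM (WT), 144, 146 and 144 (KO) and 109, 114 and 114 (KO_PAPC). It was called in the first 2 contrasts (0.30 ± 0.0271 and -0.37 ± 0.0301, edgeR adjusted p = 4.98e-12 and 6.55e-14), while its difference between KO_PAPC and WT was marginal (-0.07 ± 0.0325, edgeR adjusted p = 0.049) and was lost in DESeq2 (adjusted p = 0.151).

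Ndufa13, known also as the cell death gene GRIM-19, stood at 118, 122 and 129.8 CPM (WT), 75.04, 73.3 and 69.4 (KO) and 109, 114 and 111 (KO_PAPC). KO libraries lay below all others, with changes of -0.77 ± 0.0344 and 0.61 ± 0.0344 (edgeR adjusted p = 5.06e-20 and 2.17e-18). Exons of Tssk6 overlap 29.98% of its exonic length, so part of its reads is uncertain. Ndufa3, a small membrane subunit, was at 62.3, 64.7 and 61.3 CPM (WT), 64.2, 65.9 and 63.8 (KO) and 47.8, 54.7 and 49.1 (KO_PAPC), level between WT and KO and lower with PA/PC (-0.36 ± 0.0419, edgeR adjusted p = 1.02e-09). Ndufs5, with 5 to 19 counts per library, was not called in any contrast, and its processed pseudogene BC002163 held a mean of 426 counts.

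**Figure D2:**
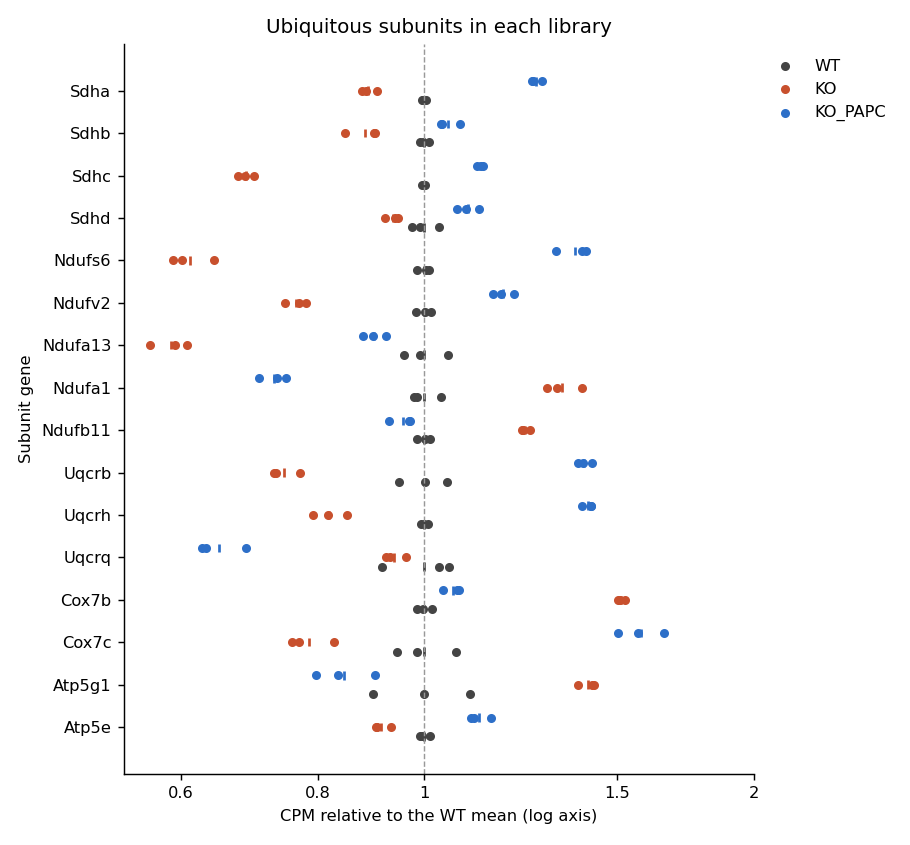
Level of 16 ubiquitous members in each library, as CPM divided by the WT mean (horizontal log axis), where dots are libraries, short bars are means of 3 and colours are groups. For most genes shown KO and KO_PAPC lie on opposite sides of WT, with Ndufa1, Ndufb11, Cox7b and Atp5g1 high in KO and Sdhc, Ndufs6, Uqcrb and Uqcrh low. The 16 genes were picked by hand and do not stand for the ubiquitous members as a set. Members left off, such as Uqcrfs1, Atp5g3 and Atp5a1, lay above WT in both groups.

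In complex III the core proteins Uqcrc1 and Uqcrc2 and the catalytic subunits Cyc1 (cytochrome c1) and Uqcrfs1 (the Rieske iron-sulphur protein) were all called higher in KO, by 0.12 to 0.26 on the log2 scale. Cyc1 was at 298, 316 and 317 CPM (WT), 379, 369 and 370.3 (KO) and 299, 319.95 and 301 (KO_PAPC), so that the KO libraries stood apart (0.26 ± 0.0242 and -0.29 ± 0.0271, edgeR adjusted p = 1.16e-11 and 5.91e-12). Uqcrfs1 rose at both steps, over 144, 144 and 141 CPM (WT), 161, 162 and 163 (KO) and 202, 198 and 203 (KO_PAPC) (0.18 ± 0.0260 and 0.31 ± 0.0275, edgeR adjusted p = 2.42e-07 and 1.3e-12). Uqcrc2 held 195, 194 and 188 CPM (WT), 224, 224 and 220.3 (KO) and 214, 212 and 218 (KO_PAPC), and was called higher in KO_PAPC than in WT (0.15 ± 0.0294, edgeR adjusted p = 5.79e-05).

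Among the small subunits, Uqcrh, the hinge protein that helps cytochrome c dock, was at 157, 155 and 154 CPM (WT), 132, 123 and 127 (KO) and 217, 221 and 221 (KO_PAPC). KO was lowest and KO_PAPC highest, with changes of -0.29 ± 0.0283 and 0.78 ± 0.0294 (edgeR adjusted p = 4.57e-11 and 1.02e-23). Uqcrb, a small subunit near a ubiquinone site, showed the same order at 34.03, 30.8 and 32.5 CPM (WT), 23.8, 23.7 and 25.03 (KO) and 46.2, 44.9 and 45.3 (KO_PAPC) (-0.43 ± 0.0487 and 0.91 ± 0.0458, edgeR adjusted p = 1.48e-09 and 8.47e-20). Since 42.5% of its words are found in other genes, its level is uncertain.

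Uqcrq, another small subunit, ran lower with PA/PC, at 111, 125 and 128 CPM (WT), 117, 113 and 112 (KO) and 76.3, 83.7 and 76.96 (KO_PAPC), where WT and KO overlapped. Its change was -0.54 ± 0.0350 against KO and -0.63 ± 0.0446 against WT (edgeR adjusted p = 1.89e-16 and 4.09e-12), while its call in KO against WT (-0.09 ± 0.0357, edgeR adjusted p = 0.0216) was lost in DESeq2 (adjusted p = 0.0765) and without WT replicate 2 or 3 or KO replicate 2 or 3 (edgeR adjusted p = 0.0691 to 0.192). Uqcr10, a further small subunit, stood at 105, 113 and 110.1 CPM (WT), 127, 119 and 120.02 (KO) and 99.01, 98.5 and 96.3 (KO_PAPC) (0.16 ± 0.0318 and -0.32 ± 0.0326, edgeR adjusted p = 4.29e-05 and 2.93e-11).

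In complex IV the tissue-restricted isoforms held the largest changes. Per kilobase of main transcript, Cox4i1 stood at 725 CPM in WT and Cox4i2, the isoform of lung and of cells short of oxygen, at 4.26. Cox4i2 (chromosome 2, 152754173 to 152765037, plus strand) was measured at 3.15, 2.84 and 3.30 CPM (WT), 0.944, 0.791 and 0.632 (KO) and 3.46, 3.99 and 3.08 (KO_PAPC). KO libraries lay below all others, and WT and KO_PAPC overlapped. The changes were -1.97 ± 0.176 and 2.14 ± 0.183 (edgeR adjusted p = 4.97e-12 and 3.65e-13), and KO_PAPC against WT was not called (0.17 ± 0.131, edgeR adjusted p = 0.245). As a share of both isoforms Cox4i2 made up 0.571% ± 0.0466 in WT (SD, n = 3), 0.170% ± 0.0308 in KO and 0.556% ± 0.0602 with PA/PC.

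Cox4i1, the ubiquitous form, moved the same way by less, at 546, 541 and 533 CPM (WT), 470.5, 461 and 455 (KO) and 635, 639 and 609 (KO_PAPC) (-0.23 ± 0.0214 and 0.44 ± 0.0251, edgeR adjusted p = 2.01e-11 and 3.88e-18). Beside these values stood Ndufa4l2, a paralogue of Ndufa4 induced at low oxygen that is no member, at 31.1, 33.2 and 31.02 CPM (WT), 2.33, 2.30 and 1.96 (KO) and 63.7, 68.9 and 65.2 (KO_PAPC). Of 10 hypoxia-responsive genes, 9 were called lower in KO and 10 higher with PA/PC. Their sum ranged over 1091 to 1116 CPM in WT, 726 to 727 in KO and 1708 to 1733 with PA/PC, and the part of this in the levels of Cox4i2 was not tested.

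Cox6b2, the testis isoform of a subunit facing the intermembrane space, was at 92.9, 95.5 and 93.1 CPM (WT), 30.3, 30.7 and 29.7 (KO) and 39.98, 46.1 and 46.5 (KO_PAPC). KO was lowest and KO_PAPC lay between KO and WT, with changes of -1.64 ± 0.0360 and 0.54 ± 0.0496 (edgeR adjusted p = 7.29e-29 and 2.02e-12) and -1.09 ± 0.0444 for KO_PAPC against WT (edgeR adjusted p = 7.2e-17). Its ubiquitous partner Cox6b1 was at 176, 179 and 176 CPM (WT), 144, 141 and 138 (KO) and 204, 201 and 203 (KO_PAPC) (-0.33 ± 0.0265 and 0.52 ± 0.0284, edgeR adjusted p = 4.28e-13 and 9.53e-19). As a share of both, Cox6b2 made up 34.7% ± 0.129 in WT (SD, n = 3), 17.7% ± 0.294 in KO and 17.9% ± 1.31 with PA/PC. The shares of KO and KO_PAPC differed by less than the spread of the KO_PAPC libraries.

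Cox6a2, the heart and muscle isoform, was low throughout, with 42, 45 and 35 counts in WT, 8, 13 and 13 in KO and 0, 1 and 0 with PA/PC. KO held 27.4% of the WT level (95% exact interval 18.1% to 40.3%, counting error only), and the fitted difference was -1.86 ± 0.255 (log2). Because the gene became a member through its WT counts alone, its differences to WT describe its level and support nothing. The single count of KO_PAPC came to 0.932% of the WT level, with an interval of 0.0234% to 5.29%. Between KO_PAPC and KO the gene was too low for the test. Cox6a1, the ubiquitous form, was at 251, 276 and 269 CPM (WT), 268, 265 and 252 (KO) and 199.6, 215 and 211 (KO_PAPC) and fell with PA/PC (-0.33 ± 0.0296, edgeR adjusted p = 1.13e-12).

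Cox7b2, a testis isoform, was at 3.55, 3.60 and 3.27 CPM (WT), 2.50, 2.58 and 2.16 (KO) and 0.544, 0.475 and 0.390 (KO_PAPC). It fell at both steps (-0.53 ± 0.129 and -2.35 ± 0.222, edgeR adjusted p = 0.000442 and 5.19e-12). Cox7b, its ubiquitous partner and X-linked, had the largest rise in KO of all members, at 176, 171 and 173 CPM (WT), 264, 261 and 260.2 (KO) and 186, 186 and 180.2 (KO_PAPC) (0.59 ± 0.0245 and -0.51 ± 0.0270, edgeR adjusted p = 4.77e-21 and 3.23e-19).

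Cox7a1, the heart and muscle form of another small subunit, was at 14.7, 12.8 and 14.95 CPM (WT), 11.5, 11.8 and 10.2 (KO) and 14.7, 15.9 and 15.6 (KO_PAPC) (-0.34 ± 0.0711 and 0.46 ± 0.0698, edgeR adjusted p = 5.99e-05 and 2.55e-07). Cox7a2, the ubiquitous form, held 168, 171 and 179.6 CPM (WT), 175, 173 and 167 (KO) and 186, 186 and 185 (KO_PAPC), and its rise with PA/PC was small (0.11 ± 0.0281, edgeR adjusted p = 0.000597). Cox7a2l, a relative that links complexes III and IV into supercomplexes, was at 73.2, 71.8 and 72.2 CPM (WT), 62.6, 64.8 and 64.8 (KO) and 103, 100.03 and 95.1 (KO_PAPC) (-0.18 ± 0.0329 and 0.63 ± 0.0354, edgeR adjusted p = 1.18e-05 and 2.38e-18). Cox8c, a testis isoform, held 8 to 20 counts per library and was not called in any of the 3 contrasts.

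Of the 11 ubiquitous subunits, 5 were called higher and 6 lower with PA/PC. Cox7c, a small membrane subunit, was at 14.6, 15.3 and 16.6 CPM (WT), 11.7, 12.8 and 11.9 (KO) and 23.3, 25.7 and 24.3 (KO_PAPC), with KO lowest and KO_PAPC highest (-0.35 ± 0.0650 and 1.003 ± 0.0614, edgeR adjusted p = 1.21e-05 and 2.76e-17). Since 52.9% of its words are found in other genes, its level is uncertain. Ndufa4 was at 222, 218 and 229 CPM (WT), 261, 266 and 258 (KO) and 234, 247 and 242 (KO_PAPC), highest in KO (0.23 ± 0.0248 and -0.12 ± 0.0271, edgeR adjusted p = 4.56e-10 and 9.79e-05).

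**Figure D3:**
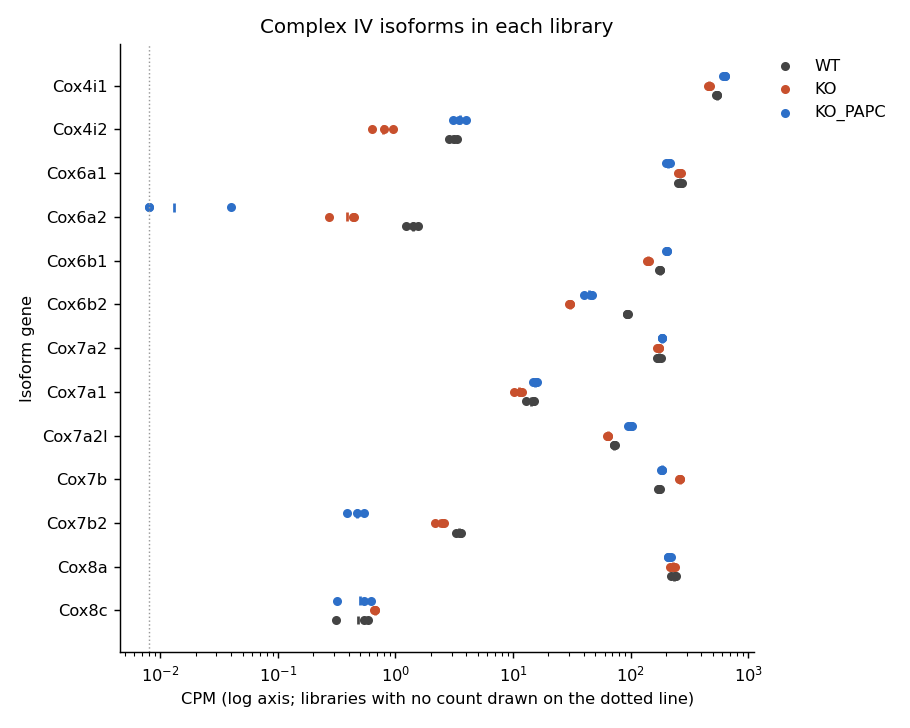
Level of complex IV isoforms in each library (CPM, horizontal log axis), with ubiquitous and tissue-restricted forms side by side, where dots are libraries, short bars are means of 3 and libraries with no count are drawn on the dotted line. Ubiquitous forms of the 3 groups lie close together on this axis, whereas those of Cox4i2, Cox6a2, Cox6b2 and Cox7b2 spread widely. Cox6a2 became a member through its WT counts alone, so its spread supports nothing.

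Complex V held the most abundant member. Atp5b, the catalytic beta subunit of the F1 head, had the highest level per length, at 1362 CPM per kilobase in WT. Summed, complex V stood at 6172 ± 51.6 CPM in WT (SD, n = 3), 6575 ± 62.4 in KO and 6998 ± 146 with PA/PC, with no overlap. Most of this sum came from Atp5b (means of 2609, 2724 and 2854 CPM) and Atp5a1 (1308, 1361 and 1599), so it does not stand for the complex. Scaled by library totals the sums were 6427 ± 39.1, 6835 ± 62.1 and 6465 ± 125 CPM, so that the step with PA/PC turned lower. In KO 10 of 17 members were called higher and 3 lower, and in KO_PAPC against KO 8 were higher and 5 lower. Atp5a1, the alpha subunit of the F1 head, was at 1309, 1327 and 1289 CPM (WT), 1382, 1359 and 1344 (KO) and 1556, 1625 and 1615 (KO_PAPC), highest in KO_PAPC (0.23 ± 0.0225 against KO, edgeR adjusted p = 1.59e-11).

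The c ring, the rotor that protons turn, is made from 3 genes whose mature proteins are the same. Atp5g3 had the highest measured level of them, at 505, 516 and 508 CPM (WT), 649, 635 and 643 (KO) and 601, 642 and 638 (KO_PAPC). It rose in KO (0.33 ± 0.0206, edgeR adjusted p = 3.98e-16) and was not called between KO_PAPC and KO (-0.04 ± 0.0250, edgeR adjusted p = 0.154). Atp5g1 was at 13.2, 14.7 and 16.2 CPM (WT), 21.05, 20.4 and 20.97 (KO) and 12.3, 11.7 and 13.3 (KO_PAPC) and highest in KO (0.50 ± 0.0616 and -0.74 ± 0.0625, edgeR adjusted p = 9.46e-09 and 2.35e-13). Atp5g2 was not called in any contrast, and 100% of the words of its main transcript are found in other genes. For Atp5g1 this share was 11.4% and for Atp5g3 0%. Since multi-mapping reads were not counted, the levels of the 3 genes are not directly comparable.

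Of the remaining members of complex V, Atp5l, a membrane subunit at dimers of the enzyme, was at 6.60, 6.48 and 6.22 CPM (WT), 8.97, 9.94 and 9.88 (KO) and 6.92, 6.21 and 6.32 (KO_PAPC), highest in KO (0.57 ± 0.0800 and -0.57 ± 0.0859, edgeR adjusted p = 9.55e-08 and 2.23e-07), with 84.8% of its words shared. Atp5e, a subunit of the central stalk, went the other way at 185, 186 and 189 CPM (WT), 174, 169.5 and 169 (KO) and 207, 215 and 208 (KO_PAPC) (-0.13 ± 0.0255 and 0.29 ± 0.0281, edgeR adjusted p = 2.65e-05 and 8.49e-12). Atp5mpl, a small membrane protein of the enzyme, was at 102, 94.7 and 97.6 CPM (WT), 94.4, 88.4 and 91.9 (KO) and 117, 121 and 118 (KO_PAPC), with a step of 0.37 ± 0.0324 under PA/PC (edgeR adjusted p = 8.66e-13). Atp5s, which carries the symbol only, was at 10.9, 11.5 and 11.8 CPM (WT), 6.37, 6.12 and 6.66 (KO) and 9.41, 8.23 and 9.05 (KO_PAPC) (-0.84 ± 0.0764 and 0.47 ± 0.0872, edgeR adjusted p = 9.08e-12 and 6.98e-06).

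The subunits encoded in mitochondrial DNA differed from the nuclear ones with PA/PC. Of the 13 genes, 7 passed the filter on low counts, and all 7 were called lower in KO_PAPC than in KO and than in WT, whereas in KO against WT 3 were higher and 4 lower. mt-Nd5, a proton pump subunit of complex I, was at 886, 914 and 903 CPM (WT), 1114, 1162 and 1123 (KO) and 473, 434 and 461 (KO_PAPC) (0.33 ± 0.0201 and -1.32 ± 0.0267, edgeR adjusted p = 2.5e-16 and 3.47e-32). mt-Co1, the catalytic subunit of complex IV, had the smallest fall with PA/PC, at 5133, 5106 and 5161 CPM (WT), 5017, 4941 and 5017 (KO) and 4369, 4188 and 4371 (KO_PAPC) (-0.22 ± 0.0210 against KO, edgeR adjusted p = 1.11e-11).

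The ratio of mitochondrially to nuclear-encoded subunit transcripts was 1.23 ± 0.0123 in WT (SD, n = 3), 1.28 ± 0.0216 in KO and 0.842 ± 0.0398 with PA/PC. This ratio is taken within a library and does not depend on the scaling between libraries. It shows that the sets changed unequally and not which of them changed. Summed nuclear members were 13929 ± 115 CPM in WT, 14140.4 ± 173 in KO and 15190.3 ± 258 with PA/PC, with WT and KO overlapping. Scaled by library totals they were 14504 ± 95.5, 14698 ± 172 and 14034 ± 227 CPM, lowest with PA/PC, so that the direction of this sum depends on the scaling.

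**Figure D4:**
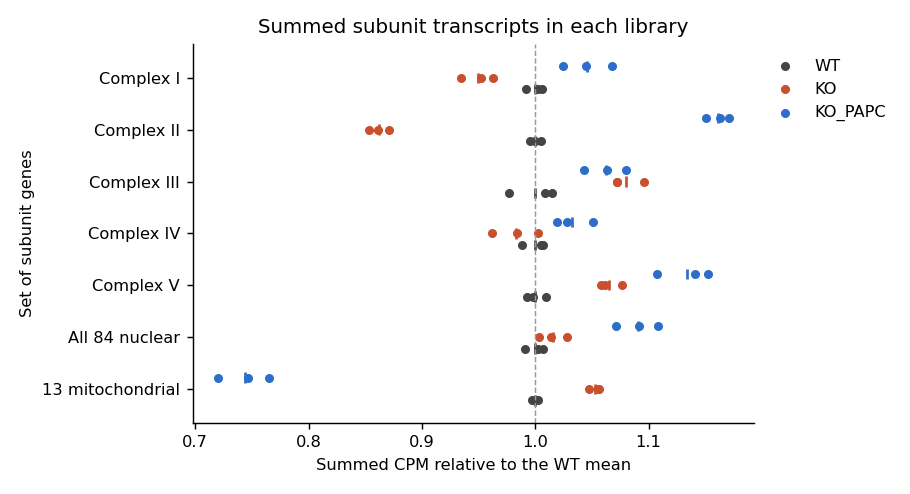
Summed CPM (TMM scaling) of the members of each complex, of all 84 nuclear members and of the 13 mitochondrially encoded subunits in each library, divided by the WT mean (horizontal axis), where dots are libraries, short bars are means of 3 and colours are groups. Complex II shows the widest gap between KO and KO_PAPC among the nuclear sets, and the mitochondrial sum is low in KO_PAPC.

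Of 43 tested assembly factors, which build the complexes without staying in them, 15 were higher and 18 lower in KO, and 16 higher and 19 lower with PA/PC. In all 76.7% and 81.4% of them were called, near the 73.8% and 81.8% of all genes tested. By direction, 36.8% of all genes were higher and 37.1% lower in KO, and 39.6% and 42.2% with PA/PC. The largest fall with PA/PC was that of Sco1, a copper carrier for complex IV (-0.78 ± 0.0441, edgeR adjusted p = 2.11e-18), and the largest rise that of Ndufaf7, a factor for complex I (0.67 ± 0.0496, edgeR adjusted p = 7.65e-15). Of 13 citric acid cycle genes other than those of complex II, 7 were higher and 4 lower in KO, and 5 higher and 7 lower with PA/PC. Of 17 genes of ubiquinone, cytochrome c and the electron transfer flavoprotein, 6 were higher and 8 lower with PA/PC. Of 77 mitochondrial ribosomal protein genes, 35 were higher and 26 lower with PA/PC (79.2% called, near the share over all genes). The cytosolic ribosomal protein genes were called higher in 74 of 83 and lower in 4. Exon length was compared over genes with a mean of at least 100 counts. Up to 1000 bases the median with PA/PC was 0.28 over other genes and 0.09 over the 17 members of that length. At 1000 to 2000 bases these were 0.16 and 0.05 (31 members). Longer bins went the other way, with 0.10 and 0.22 at 2000 to 4000 bases (20 members) and 0.011 and 0.073 at 4000 to 8000 (10 members).

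Members on some chromosomes moved alike, and so did the other genes there. On chromosome 8 the median of 649 other genes with a mean of at least 100 counts was -0.28 in KO against WT and 0.51 in KO_PAPC against KO, and the 3 members there (Cox4i1, Ndufa13 and Ndufb7) had medians of -0.30 and 0.44. On chromosome 13, with 399 other genes at -0.19 and 0.45, the 6 members (Cox7c, Ndufs4, Ndufs6, Sdha, Uqcrb and Uqcrfs1) had medians of -0.29 and 0.70. On chromosome 17 the 572 other genes had medians of -0.25 and 0.39 and the 6 members of -0.14 and 0.49.

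Chromosomes 11 and X ran the other way. On chromosome 11 the 984 other genes had medians of 0.20 and -0.30 and the 4 members (Atp5g1, Atp5h, Uqcr10 and Uqcrq) of 0.20 and -0.43. On the X chromosome the 425 other genes had medians of 0.28 and -0.36 and the 3 members (Cox7b, Ndufa1 and Ndufb11) of 0.42 and -0.51. Other members changed where the median of their chromosome was near 0. With PA/PC Ndufv1 on chromosome 19 changed by -0.37 and Cyc1 on chromosome 15 by -0.29, where the other genes had medians of 0.02 and 0.01.

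Over the 78 members outside the tissue-restricted isoforms, Pearson's r between a member's log2 fold change and the median of the other genes on its chromosome was 0.603 in KO against WT, 0.729 in KO_PAPC against KO and 0.522 in KO_PAPC against WT. These are descriptions across genes, which share libraries and chromosome medians and are not independent replicates, and over all tested members r was 0.272, 0.489 and 0.221. Relative to their chromosomes, an alternative chosen after the values were seen, the complex II genes had a median of -0.08 in KO and 0.18 with PA/PC. Of these, Sdha (0.02 and 0.06) and Sdhb (-0.03 and -0.03) lay near their chromosomes, and Sdhc (-0.49 and 0.54) and Sdhd (-0.13 and 0.31) farther from them. The complex IV median in KO_PAPC against KO turned from 0.11 to -0.07 under the same adjustment. What moved whole chromosomes was not tested.

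**Figure D5:**
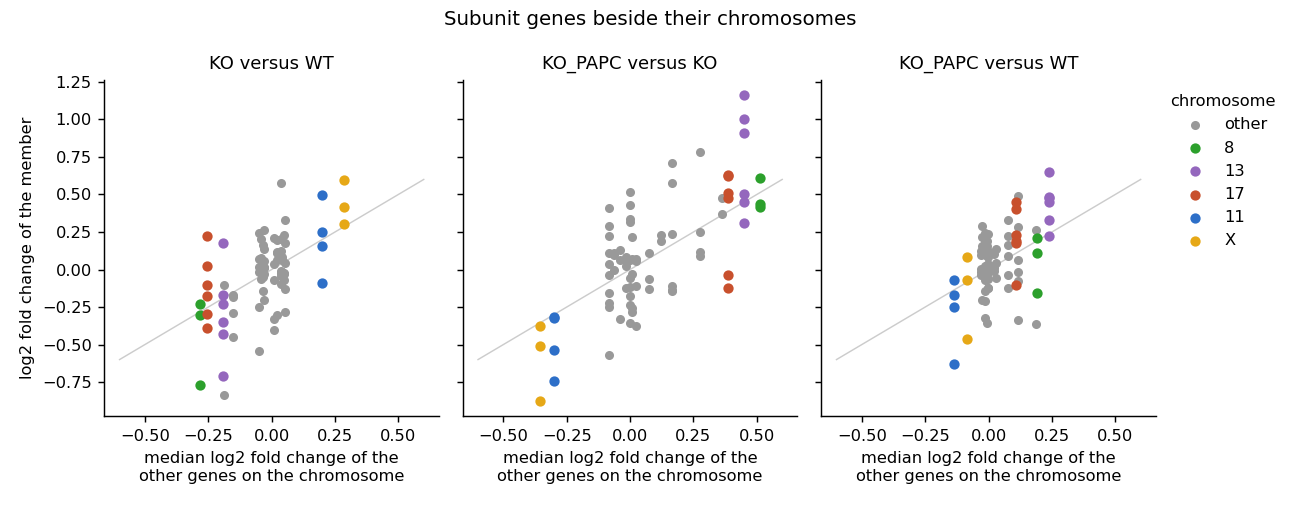
Log2 fold change of the 78 members outside the tissue-restricted isoforms (vertical axis) against the median log2 fold change of the other genes on the same chromosome (horizontal axis) in the 3 contrasts. Colours mark 5 chromosomes and the grey line marks equal values. Members on chromosomes 8, 13 and 17 lie mostly low in KO and high with PA/PC, and those on chromosomes 11 and X mostly the reverse.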

How the data were processed

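RNA-seq counts per Ensembl gene were deposited by the authors as 1 table of raw read counts for 9 libraries, made with bcl2fastq 2.20.0.422, STAR 2.7.2b and featureCounts 1.6.5 on GRCm38 per the submitters' processing notes. The study's methods instead name TopHat as aligner, with read trimming and an older featureCounts, for its analysis of WT against KO, and STAR for KO with and without PA/PC. All 9 columns come in 1 table and were taken as processed alike, as the notes list them, which was not tested and bears on each contrast with WT. Multi-mapping and multi-overlapping reads were not counted, which lowers members with pseudogenes: 31 of 84 shared over 10% of their 51-base words with another gene.

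Each contrast was fitted on its own 6 libraries with edgeR 4.0.16 (filterByExpr, TMM, quasi-likelihood test, Benjamini-Hochberg at 0.05, and a tested minimum fold of 1.5) in R 4.3.3, with DESeq2 1.42.0 as an alternative. The step was tested on simulated data. Groups came from the labels. The study's methods call the libraries biological replicates, and those of KO and KO_PAPC separate pools of EBs. Named were the members with the 2 largest called changes per complex, direction and contrast, complex II, the tissue-restricted isoforms, paralogue sets and members beside the mean of 10 counts, and up to 4 genes of each other list with the largest called change. Ndufa9, Ndufa5, Ndufs8, Uqcrc1 and Atp5b were also described for their role or level. Atp5h, Ndufa7, Ndufb7 and Ndufs4 were listed by chromosome, and Pou5f1, Col4a1, Afp, T and Kdr named among markers. All of these were named after their values were seen. Members and lists were chosen with earlier results of these data known. Replicate libraries differed by more than sampling noise, but by little. The spread of a gene between replicates (edgeR's common biological coefficient of variation) was 2.09% in KO against WT, 2.32% in KO_PAPC against KO and 2.65% in KO_PAPC against WT. The single-gene result of 1 member is not reported here.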

Additional observations from a re-analysis of the deposited data

How the results depend on the processing

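Across the alternatives other than leaving out a library, 93 counts of calls stayed within 1.5 times and 3 did not, and 953 values of named genes kept direction and side of the threshold, 10 lost a call, 12 gained one and 25 changed sign. Medians of the complexes and of all genes tested held less well. Of these, 122 stayed within their limit, 26 moved past it and 11 changed sign. Values that changed sign, and counts and complex medians that moved, follow, as log2 fold changes or medians of them except for numbers of members, and their causes were not tested. The correction for GC content and length gave, in KO against WT, -0.077 for complex I, 0.12 for complex V, -0.010 for Ndufa3 and 0.18 for Cox6a1. In KO_PAPC against KO it gave 0.43 for complex II, -0.082 for complex III and -0.22 for Atp5g2. In KO_PAPC against WT it gave 0.037 for complex I, 0.20 for complex II, 0.092 for complex III, -0.019 for complex IV, 0.044 for Cyc1, -0.031 for Cox7b, -0.11 for Cox8c, -0.0058 for Ndufa4 and -0.013 for Atp5l. Testing without a filter gave, in KO against WT, -0.071 for complex I and -0.0038 for Atp5g2. In KO_PAPC against KO it gave 0.024 for complex IV. In KO_PAPC against WT it gave 0.10 for complex IV. Fitting the 9 libraries together gave, in KO_PAPC against KO, 0.0035 for complex IV. Scaling by library totals gave, in KO_PAPC against KO, 6 for number lower past the minimum fold, -0.090 for complex I, 0.21 for complex II, -0.32 for complex III, -0.057 for complex IV, -0.10 for complex V, -0.050 for Ndufs5, -0.057 for Cox7a2 and -0.095 for Atp5g2. In KO_PAPC against WT it gave 13 for number higher, 44 for number lower, -0.15 for complex I, -0.022 for complex II, -0.19 for complex III, -0.077 for complex IV, -0.043 for complex V, -0.10 for Sdhb, -0.0020 for Sdhc, -0.041 for Sdhd, -0.012 for Uqcrc2, -0.053 for Cox7a1, -0.069 for Cox7a2, -0.085 for Cox7b, -0.13 for Cox8c, -0.061 for Ndufa4, -0.0064 for Atp5e, -0.084 for Atp5g2 and -0.16 for Atp5l. A filter at a mean of 10 counts gave, in KO_PAPC against WT, -0.00026 for Atp5l. Taking members relative to their chromosome, chosen after the data were seen, gave, in KO against WT, -0.021 for complex I, -0.083 for complex II, 0.086 for complex III and -0.023 for complex IV. In KO_PAPC against KO it gave 0.034 for complex I, 0.18 for complex II, -0.075 for complex III and -0.073 for complex IV. In KO_PAPC against WT it gave -0.0098 for complex I, 0.089 for complex II, 0.051 for complex IV and 0.093 for complex V. Leaving out 1 library gave, in KO against WT, -0.034 to 0.077 for Atp5g2, -0.063 to 0.0074 for Cox6a1, -0.037 to 0.011 for Cox7a2 and -0.082 to -0.048 for complex I. The range in KO_PAPC against KO was -0.0053 to 0.11 for complex IV, -0.058 to 0.34 for Ndufs5, -0.050 to 0.00058 for Atp5g3 and -0.0079 to 0.14 for Atp5g2. The range in KO_PAPC against WT was -0.19 to 0.27 for Cox8c, -0.047 to 0.034 for Atp5l, -0.021 to 0.017 for complex I, -0.0085 to 0.15 for Atp5g2 and 0.077 to 0.10 for complex IV. Calls lost under other settings, with adjusted p, were Uqcrq in KO against WT (0.0765 in DESeq2), Atp5a1 in KO against WT (0.0824 without a filter), Sdhd in KO_PAPC against KO (0.0643 with library totals), Ndufb11 in KO_PAPC against WT (0.151 in DESeq2, 0.0861 with RLE size factors, 0.0526 in the joint fit and 0.194 without a filter), Ndufv2 in KO_PAPC against WT (0.0592 with library totals), Cox4i1 in KO_PAPC against WT (0.141 with library totals) and Cox6b1 in KO_PAPC against WT (0.461 with library totals). Calls lost by leaving out a library were those of Uqcrq, Atp5a1, Atp5mpl and Ndufv3 in KO against WT and of Ndufb11, Cox7b and Atp5g1 in KO_PAPC against WT. With the replicate block the counts were 26 higher and 33 lower in KO against WT, 39 higher and 27 lower in KO_PAPC against KO and 38 higher and 22 lower in KO_PAPC against WT. Libraries of the same number shared only the number, since their deviations correlated between -0.0384 and 0.0478. With 3 libraries per group and 1 clone, p-values measure the spread between these libraries, and Ndufs5, Cox8c and Cox6a2 are limited by depth.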
